A study of Homo sapiens with 12 samples.

Results

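The 34 genes described here act in homologous recombination and in the Fanconi pathway, and they were taken from the count table by exact match of the gene symbol. All 34 were found among 58735 genes, and all 34 passed the filter on low counts. RNA had been sequenced in bulk from N/TERT-2G cells, a telomerase-immortalised line of human skin keratinocytes. Each well of a 6-well plate had received 100 pmol of siRNA with 5 µl of a lipofection reagent, and the medium was changed after 6 h. The 4 groups of 3 libraries differ in the siRNA: a negative control, ATF3 siRNA (against a stress-induced transcription factor), APOE siRNA (against a lipid carrier) or CXCL14 siRNA (against a chemokine of epithelia). All groups are of 1 cell line and all were transfected. The siRNA sequences, the number of sequences per target and the time to harvest are not stated in the labels, nor whether replicates were separate cultures, so p-values measure only the spread between these libraries, which may be technical.

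Homologous recombination repairs a double-strand break by copying the sister chromatid. ATM and ATR signal the damage, the MRN complex, RBBP8, EXO1 and BLM cut back the broken ends, and BRCA1 with BARD1, PALB2 and BRCA2 prepares the exposed strand for exchange with the sister chromatid, with the help of RAD51C, RAD51D, XRCC2 and XRCC3. The Fanconi proteins deal with crosslinks between the strands of DNA: a core complex attaches ubiquitin to the pair FANCD2 and FANCI, which opens the way to incision and then to recombination. Since a sister chromatid is needed, the pathway works in S and G2 phase, and many of its genes are transcribed mainly in cycling cells, which in epidermis are the basal keratinocytes.

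Promoter sequence was read from RefSeq windows (GRCh38.p14) of 250 bases before to 50 after a transcript start, which 31 of the 34 genes have, in 42 windows. NBN, RAD54B and FANCI have no entry. The windows are shown first because 27 of the 34 transcripts were lower with CXCL14 siRNA, against 28.4% of all tested genes. E2F sites are known from promoters of S-phase genes, and a part of E2F in the change was not tested. E2F was searched as TTTGGCGC, TTTCCCGC, TTTCGCGC or TTTGCCGC, the site of the CREB and ATF family (CRE) as TGACGTCA, and AP-1 as TGACTCA or TGAGTCA, all on both strands. The E2F letters stood in windows of 5 of 31 members (16.1%), EXO1, FANCA, FANCC, FANCD2 and XRCC2, against 3.99% of all 27305 genes with a window. Those include genes not tested for expression, and a gene counted if any of its windows held a match. The shares therefore do not compare the members with expressed genes alone. The CRE stood in 3 of 31 (9.68%), EXO1, RAD51C and XRCC2, against 2.25% of all genes, and AP-1 in 0 of 31, against 6.05%. The stretches with these matches follow, 5′ to 3′ on the strand of the gene, with the matches in capitals.
EXO1, chr1:241848110-241848215, plus strand, a CRE and an E2F match: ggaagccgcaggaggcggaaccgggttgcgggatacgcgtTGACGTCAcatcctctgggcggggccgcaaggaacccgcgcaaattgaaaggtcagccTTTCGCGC
FANCA, chr16:89816772-89816859, minus strand, an E2F match: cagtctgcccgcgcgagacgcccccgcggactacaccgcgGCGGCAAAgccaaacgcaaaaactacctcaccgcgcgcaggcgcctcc
FANCC, chr9:95317710-95317921, minus strand, a pair of E2F matches: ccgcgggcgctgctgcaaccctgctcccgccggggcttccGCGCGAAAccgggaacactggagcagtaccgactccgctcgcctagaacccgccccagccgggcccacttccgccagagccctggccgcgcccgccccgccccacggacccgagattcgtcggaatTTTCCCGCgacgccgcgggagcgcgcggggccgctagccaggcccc
FANCD2, chr3:10026395-10026442, plus strand, an E2F match: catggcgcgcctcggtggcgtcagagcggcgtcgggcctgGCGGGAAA
RAD51C, chr17:58692532-58692601, plus strand, a CRE: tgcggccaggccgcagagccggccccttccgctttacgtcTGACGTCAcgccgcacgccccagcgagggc
XRCC2, chr7:152676113-152676316, minus strand, a CRE and an E2F match: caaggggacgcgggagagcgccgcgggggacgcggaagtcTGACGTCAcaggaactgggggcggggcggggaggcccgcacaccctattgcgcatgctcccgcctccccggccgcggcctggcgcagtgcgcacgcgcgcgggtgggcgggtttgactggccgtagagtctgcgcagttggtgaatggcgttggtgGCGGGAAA

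The first base of the match lies 2 bases before the start in FANCD2 and 172 bases before it in FANCA. In EXO1 the CRE begins 54 bases before the start and the E2F letters begin at base 5 of the transcript. Of the genes with E2F letters, EXO1, FANCA, FANCD2 and XRCC2 were lower with CXCL14 siRNA and FANCC was higher. RAD51C, with a CRE and no E2F letters, was higher too, whereas EXO1 and XRCC2, which have both, were lower. Among 24 members that were lower and have a window, 4 (16.7%) held the E2F letters, and among the 7 that were not lower, 1 (14.3%). The cell cycle homology element (TTTGAA or TTCGAA, both strands), known from promoters of mitotic genes, stood in 4 of 31 members (12.9%), against 23 of 31 genes of a mitosis list (74.2%) and 19.5% of all genes. CCAAT, on either strand, stood in 16 of 31 members (51.6%) and in 39.7% of all genes. A DNA replication list held the E2F letters in 19 of 35 genes (54.3%). A match is a description of the sequence, not a measured site.

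Total counts ran from 16225691 to 22246755 per library, replicates of a group had correlations of 0.993 to 0.996 (log2 CPM, over genes), and by that measure no library stood apart from its group. Levels are CPM, counts relative to the library's total after TMM scaling. The floor for a count of 0 is 3 counts, or 0.135 to 0.185 CPM before TMM scaling. ATF3 went from 40.4 to 43.0 CPM in the control to 11.5 to 12.5 with its siRNA, and APOE from 2.78 to 3.58 to 0.105 to 0.273. With CXCL14 siRNA both stood above the control, ATF3 at 64.0 to 71.5 CPM and APOE at 5.48 to 6.37. CXCL14 was near the floor in the control (6 to 11 counts per library), had 0 or 1 count with CXCL14 siRNA, and stood at 4.27 to 12.3 CPM with APOE siRNA. Keratinocyte markers were high (KRT5 8694 to 18517 CPM). Of 23 markers of other cell types, PTPRC, CD3E, LYZ and TYR had no count, and COL1A1 (13.3 to 87.0 CPM), CD14 (up to 6.12) and PMEL (up to 2.11) were the ones above 1 CPM. The summed fibroblast markers moved with the groups, from 25.4 to 34.2 CPM in the control to 74.2 to 87.8 with APOE siRNA and 14.6 to 17.8 with CXCL14 siRNA, nearly all of it COL1A1. COL1A2, COL3A1, LUM and PDGFRA stayed at 0 to 0.211 CPM, PDGFRB reached 0.273 and DCN 0.843. Of the 2 fibroblast markers tested, 2 were higher with APOE siRNA, whereas 1 was higher and 1 lower with CXCL14 siRNA. The summed immune markers, nearly all CD14, were 2.36 to 3.34 CPM in the control, 6.01 to 6.31 with APOE siRNA and 1.58 to 1.79 with CXCL14 siRNA. Their part in the results was not tested.

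Per gene length, the 34 transcripts covered a wide range in control cells. On the scale of the deposited FPKM, RBBP8, which starts end resection, led with 13.1 ± 0.50 (SD, n = 3), followed by UBE2T, the ubiquitin-conjugating enzyme of the Fanconi core complex, with 11.9 ± 0.66. NBN, the MRN subunit that recruits ATM, came next with 9.61 ± 0.85. FANCI (7.48 ± 0.45), FANCE (7.29 ± 0.39) and FANCG (7.16 ± 0.29) followed closely, and each differed from its neighbour in this order by less than the SD of either. At the low end RAD50 (1.17 ± 0.065), RAD51D (1.03 ± 0.062) and RAD54B (0.409 ± 0.11) came last. The places of RAD50 and RAD54B are uncertain, since 79.7% and 59.1% of their exon bases are shared with another gene on the same strand. RAD54B, a DNA translocase, had 10 to 63 counts per library, the fewest of the 34, and the highest coefficient of variation among control libraries (28.1%, against a median of 6.38%).

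**Figure D1:**
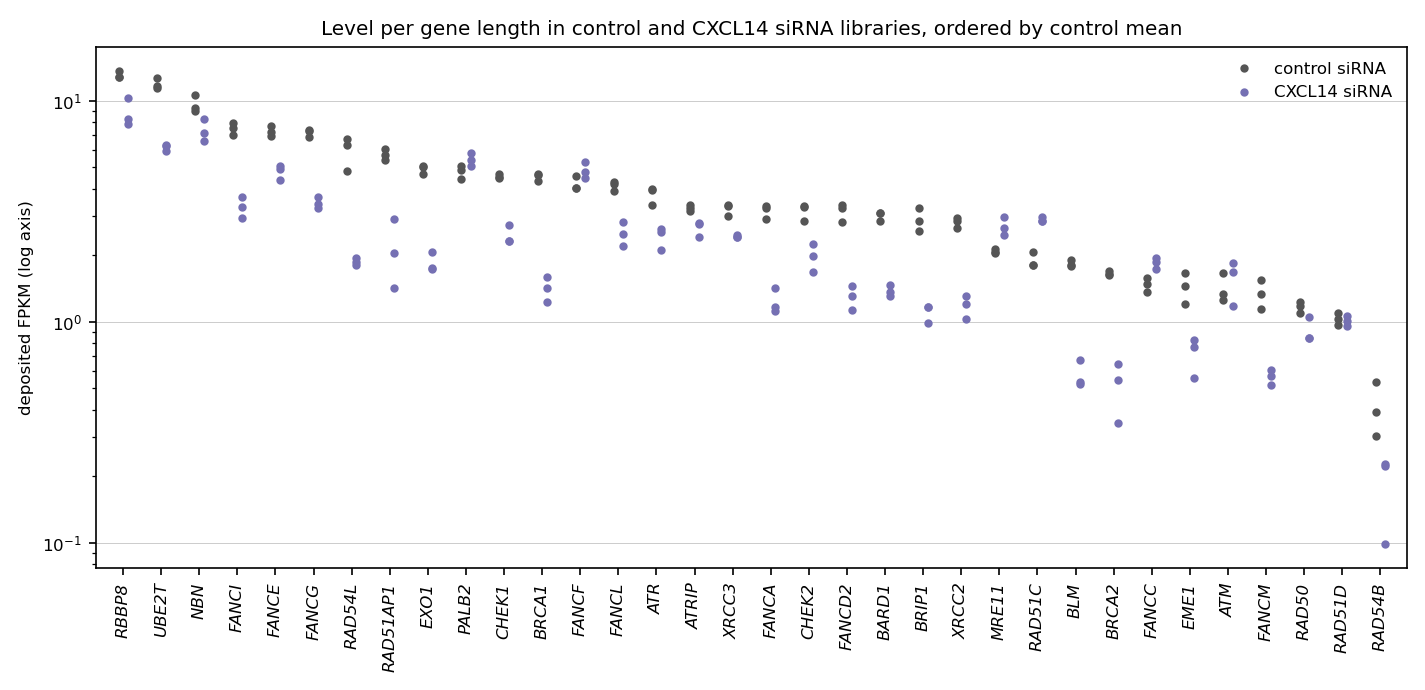
Deposited FPKM (log axis) of the 34 genes in each control and CXCL14 siRNA library, ordered by the control mean from RBBP8 (13.1) to RAD54B (0.409). The places of RAD50, XRCC3 and RAD54B are uncertain, since each shares over 50% of its exon bases with another gene. All CXCL14 siRNA points lie below all control points in 27 genes and above them in MRE11, RAD51C and FANCC, and the points of the 2 groups overlap in ATM, PALB2, RAD51D and FANCF.

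Exon sharing limits some members as well. Whether reads were counted by strand is not stated, and 10 of the 34 share over 10% of their exon bases with another gene. RAD50 shares 79.7% with AC116366.3 and RAD54B 59.1% with FSBP, both on the same strand, which counting by strand would not separate. XRCC3 shares 76.7% with KLC1 on the opposite strand. ATRIP shares 27.9% with TREX1 on the same strand. On the opposite strand RAD54L shares 25.1% with LRRC41 and FANCA 23.6% with ZNF276. Their values are uncertain, by an amount that the share of bases does not give.

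The summed level of the 34 genes was 793 to 802 CPM in the control libraries. It was 682 to 776 CPM with ATF3 siRNA, 687 to 719 after APOE siRNA and 477 to 546 with CXCL14 siRNA, that is 92.2%, 88.0% and 63.4% of the control mean. Every library of each siRNA group was below every control library in this sum, and the CXCL14 siRNA libraries were below all others.

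With CXCL14 siRNA, 27 of the 34 genes were lower than in the control and 3 were higher (edgeR adjusted p under 0.05), where 28.4% of 14920 tested genes were lower and 27.4% higher, 55.8% in all. The members' median log2 fold change was -0.92, against 0.01 over all tested genes. In 27 members every CXCL14 siRNA library was below every control library, which held for 31.1% of tested genes, and in 4 every library was above (31.0% of tested genes). The fitted levels ran from 30.7% of control (BRCA2) to 153% (RAD51C), and 16 members were under 50% of control. MRE11, RAD51C and FANCC were the 3 higher genes, and ATM, PALB2, RAD51D and FANCF did not pass in either direction. In a bulk culture, fewer cells that make a transcript and less of it per cell cannot be told apart.

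With APOE siRNA 10 of the 34 were lower and 0 higher in edgeR, where 22.5% of tested genes were lower and 22.3% higher, 44.8% in all. The members' median was -0.19, against 0.01 over all tested genes. At an unadjusted p under 0.05, 1 was higher, and DESeq2 called 0 higher. The 10 were CHEK1, RAD50, NBN, BLM, BRCA1, BRIP1, FANCA, FANCG, FANCM and FANCD2, at 65.0 to 84.4% of control. All APOE siRNA libraries were below all control libraries in 18 members, against 27.2% of tested genes, and above in RAD51AP1 and FANCE. The calls of CHEK1, BLM, BRIP1 and FANCA ended when single libraries were left out (highest adjusted p 0.128, 0.131, 0.0869 and 0.154), for FANCA without control library 1 or 3 or APOE siRNA library 2 or 3.

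With ATF3 siRNA 3 of the 34 were lower, RBBP8, BLM and RAD51D, and 0 higher in edgeR. Over all tested genes 20.4% passed, 9.14% lower and 11.2% higher (1363 and 1678 genes, or 1734 and 1363 when scaled by library size alone). The members' median was -0.12, against 0.00 over all tested genes, and at an unadjusted p under 0.05 there were 9 lower and 1 higher. DESeq2 called 3 lower and 0 higher. In 8 members every ATF3 siRNA library was below every control library, against 17.2% of tested genes. The 3 calls rest on single libraries: 0 members passed when control library 1, control library 2 or ATF3 siRNA library 3 was left out. Without ATF3 siRNA library 2, 1 was lower, and without ATF3 siRNA library 1, 7 were lower and 1 was higher.

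**Figure D2:**
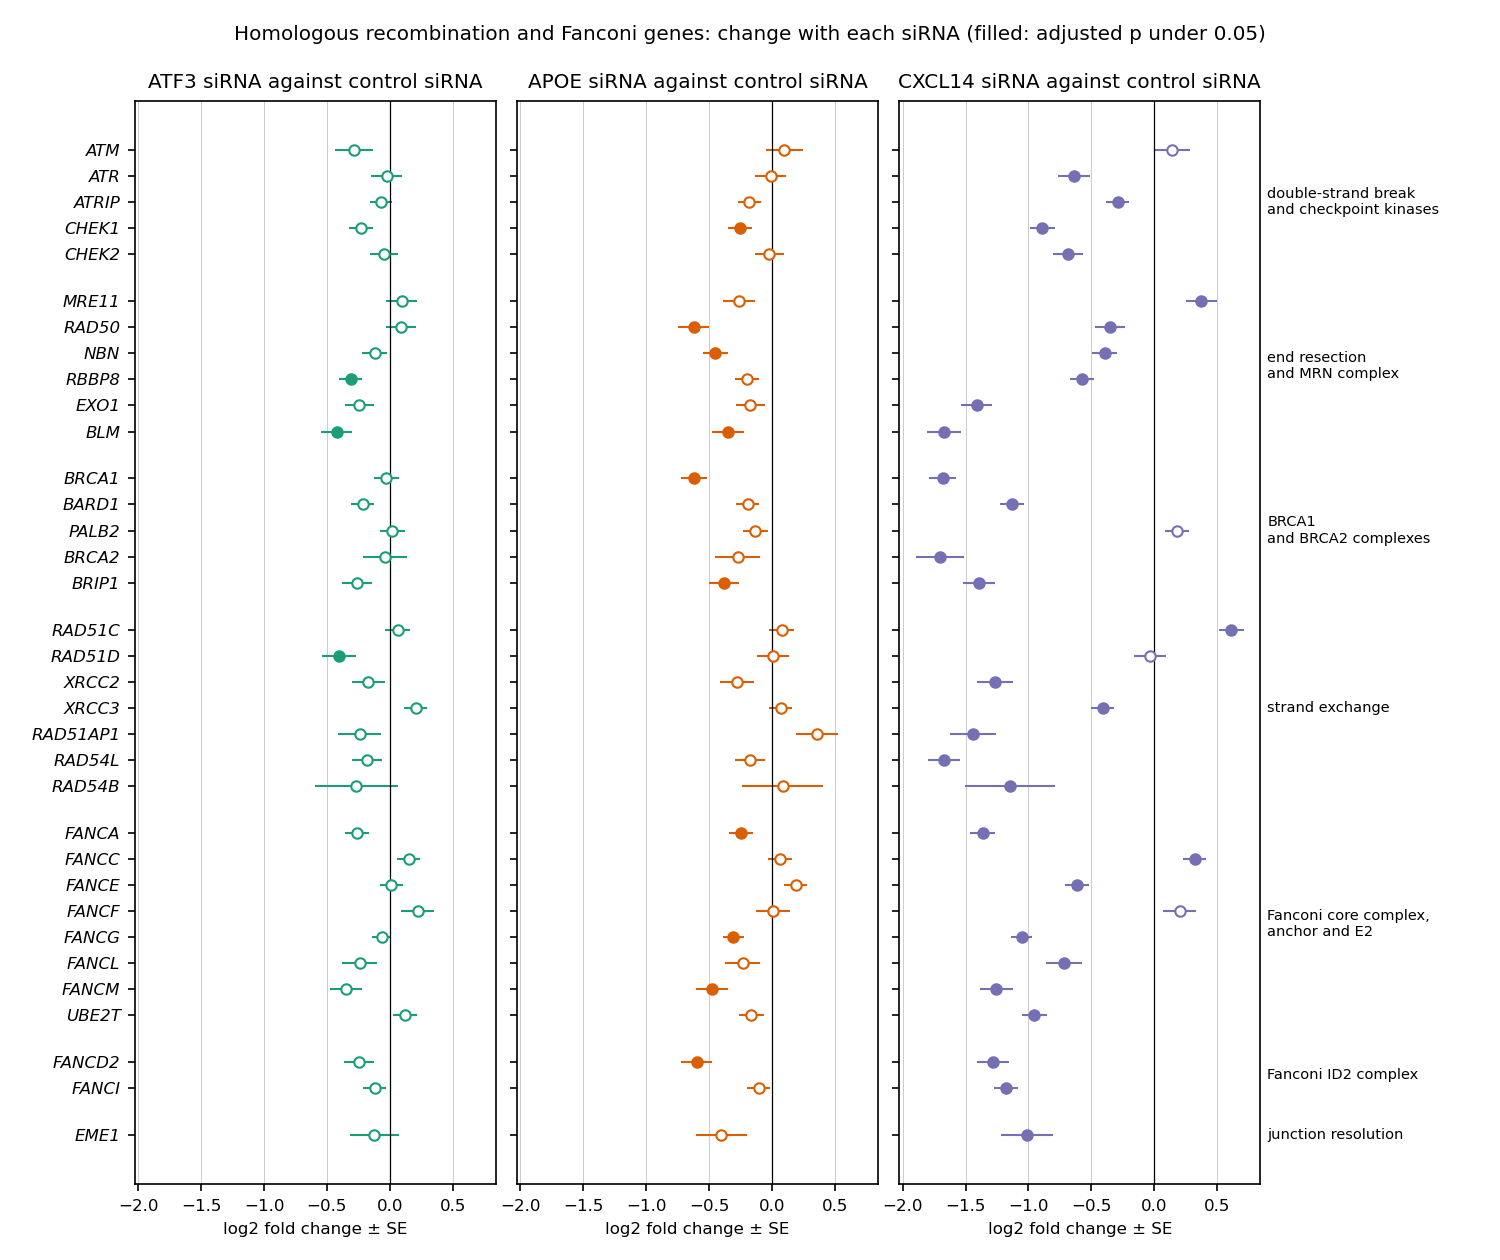
Log2 fold change ± SE of each gene against the control siRNA, by role, for ATF3, APOE and CXCL14 siRNA (filled points: edgeR adjusted p under 0.05). In the CXCL14 panel 27 filled points lie left of 0 and 3 right of it, in the APOE panel 10 lie left, and in the ATF3 panel 3.

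Among the kinases and their partners, CHEK1 (chromosome 11, 125625136 to 125676255, hg38), the effector kinase of ATR in S phase, changed most with CXCL14 siRNA. Its control libraries read 29.9, 29.5 and 30.9 CPM and its CXCL14 siRNA libraries 18.01, 15.4 and 15.4, or 54.0% of control (log2 -0.89 ± 0.10, edgeR adjusted p = 1.02e-06). ATF3 and APOE siRNA gave 22.4 to 28.7 and 23.7 to 26.4 CPM, and only the APOE difference passed (-0.25 ± 0.10, adjusted p = 0.0412), a call that ended without any 1 of the control libraries or without APOE siRNA library 1 or 2. CHEK2, the effector kinase of ATM, fell to 62.1% of control with CXCL14 siRNA, ATR to 64.3% and ATRIP, which brings ATR to single-stranded DNA, to 81.7%. The ATRIP call ended without CXCL14 siRNA library 2 (adjusted p = 0.0598). ATM did not pass against the control with any of the 3 siRNAs. Its CXCL14 siRNA libraries spread from 28.5 to 44.6 CPM, across the control range of 30.4 to 40.1 (log2 0.14, 95% interval -0.19 to 0.48). Library values of CHEK1 and ATM are given here after they had been seen.

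The MRN complex did not move as a unit. MRE11, its nuclease, stood at 15.9, 16.04 and 16.7 CPM in the control and at 23.2, 19.3 and 20.6 with CXCL14 siRNA (0.37 ± 0.12, edgeR adjusted p = 0.0166), a rise to 130% that did not pass without CXCL14 siRNA library 1 (adjusted p = 0.0744). RAD50, the ATPase that bridges the ends, fell with APOE siRNA from 11.6, 12.1 and 10.9 CPM to 8.38, 7.38 and 6.63 (-0.62 ± 0.12, adjusted p = 0.000601). It was lower with CXCL14 siRNA too (78.2% of control, adjusted p = 0.0181), but not without control library 2, CXCL14 siRNA library 2 or 3, or when scaled by library size alone. NBN fell to 73.2% of control after APOE siRNA and to 76.0% with CXCL14 siRNA, and its ATF3 siRNA libraries (47.4 to 62.5 CPM) overlapped the control (56.3 to 65.8). So in the main fit 2 of the 3 MRN transcripts were lower with CXCL14 siRNA and the third was higher. The RAD50 and MRE11 calls ended in the settings named above. RAD50 also shares 79.7% of its exon bases with another gene, so its values are uncertain.

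Outside the MRN complex, the end resection genes EXO1, BLM and RBBP8 were lower with CXCL14 siRNA. EXO1 (chromosome 1, 241847967 to 241895148), the exonuclease of long-range resection, read 20.8, 21.2 and 19.6 CPM in the control, 20.4, 16.5 and 14.98 with ATF3 siRNA, 19.2, 16.7 and 18.8 after APOE siRNA and 8.64, 7.24 and 7.27 with CXCL14 siRNA. It fell to 37.6% of control with CXCL14 siRNA (-1.41 ± 0.12, edgeR adjusted p = 5.70e-08), and the other two differences did not pass. BLM (chromosome 15, 90717327 to 90816165), the helicase mutated in Bloom syndrome, was at 12.9, 12.1 and 12.1 CPM in the control, at 10.03, 9.38 and 8.16 with ATF3 siRNA, at 10.3, 10.4 and 8.35 with APOE siRNA, and at 4.53, 3.59 and 3.52 with CXCL14 siRNA. No library of the 3 siRNA groups reached the control range, and BLM is the one member called lower with all 3 siRNAs (-0.42 ± 0.13, -0.35 ± 0.13 and -1.67 ± 0.14, edgeR adjusted p = 0.0258, 0.0322 and 3.30e-08). These comparisons share their controls, and the call with ATF3 siRNA ended without control library 1 or 2 or ATF3 siRNA library 2 or 3, that with APOE siRNA without any 1 of the control libraries or APOE siRNA library 3. RBBP8 (CtIP) fell from 65.8 to 70.2 CPM to 48.9 to 58.5 with ATF3 siRNA (-0.31 ± 0.09, adjusted p = 0.0274) and to 40.3 to 52.8 with CXCL14 siRNA (-0.58 ± 0.09, adjusted p = 7.07e-05). Its APOE siRNA libraries (55.4 to 61.4 CPM) were also below the control, without passing (adjusted p = 0.0943).

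BRCA1 (chromosome 17, 43044295 to 43170245), the ubiquitin ligase that promotes resection, had the smallest adjusted p of the 34 against the control. Its level was 42.9, 42.5 and 40.2 CPM with the control siRNA, at 46.7, 40.6 and 35.8 with ATF3 siRNA, at 28.99, 27.3 and 25.4 with APOE siRNA, and at 14.7, 13.2 and 11.4 with CXCL14 siRNA. The ATF3 siRNA values enclosed the control values, the APOE siRNA values lay below both, and the CXCL14 siRNA values lay below all others. Against the control BRCA1 fell to 65.1% with APOE siRNA (-0.62 ± 0.10, edgeR adjusted p = 0.00012) and to 31.2% with CXCL14 siRNA (-1.68 ± 0.11, adjusted p = 1.84e-09). It was 1.51 times as high with ATF3 as with APOE siRNA (adjusted p = 0.00021), and 2.09 times as high with APOE as with CXCL14 siRNA (adjusted p = 4.42e-07).

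BARD1 (chromosome 2, 214725646 to 214809711), which pairs with BRCA1 through its RING domain, read 17.5, 19.01 and 19.1 CPM in the control, 15.7, 15.7 and 16.6 with ATF3 siRNA, 16.97, 14.7 and 17.02 after APOE siRNA and 9.01, 8.38 and 7.99 with CXCL14 siRNA. Only the last group passed, at 45.6% of control (-1.13 ± 0.10, edgeR adjusted p = 5.67e-08), although all other siRNA libraries were below the control ones too. BRIP1 (chromosome 17, 61681266 to 61863521), the helicase bound by the BRCT repeats of BRCA1, was at 26.5, 23.1 and 20.8 CPM in the control, at 22.3, 19.9 and 16.3 with ATF3 siRNA, at 17.9, 17.2 and 18.9 with APOE siRNA, and at 9.38, 7.95 and 9.39 with CXCL14 siRNA. It fell to 76.7% of control with APOE siRNA (-0.38 ± 0.12, adjusted p = 0.0152, not without control library 1 or APOE siRNA library 2) and to 38.1% with CXCL14 siRNA (-1.39 ± 0.12, adjusted p = 9.68e-08).

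Of BRCA2 and PALB2, which act as mediator and bridge, BRCA2 was lower with CXCL14 siRNA and PALB2 did not pass. BRCA2 stood at 20.9, 20.3 and 20.2 CPM in the control and at 7.95, 6.75 and 4.29 with CXCL14 siRNA, the lowest fitted share of control among the 34 (30.7%, -1.70 ± 0.19, edgeR adjusted p = 1.32e-06). With APOE siRNA its libraries read 19.2, 18.9 and 12.6 CPM, and the difference did not pass (adjusted p = 0.225). PALB2, which links BRCA1 to BRCA2, was at 21.4 to 24.3 CPM in the control and 24.3 to 27.8 with CXCL14 siRNA (0.18 ± 0.10, 95% interval -0.04 to 0.40, adjusted p = 0.128). The library values of BRCA2 were chosen after they had been seen.

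**Figure D3:**
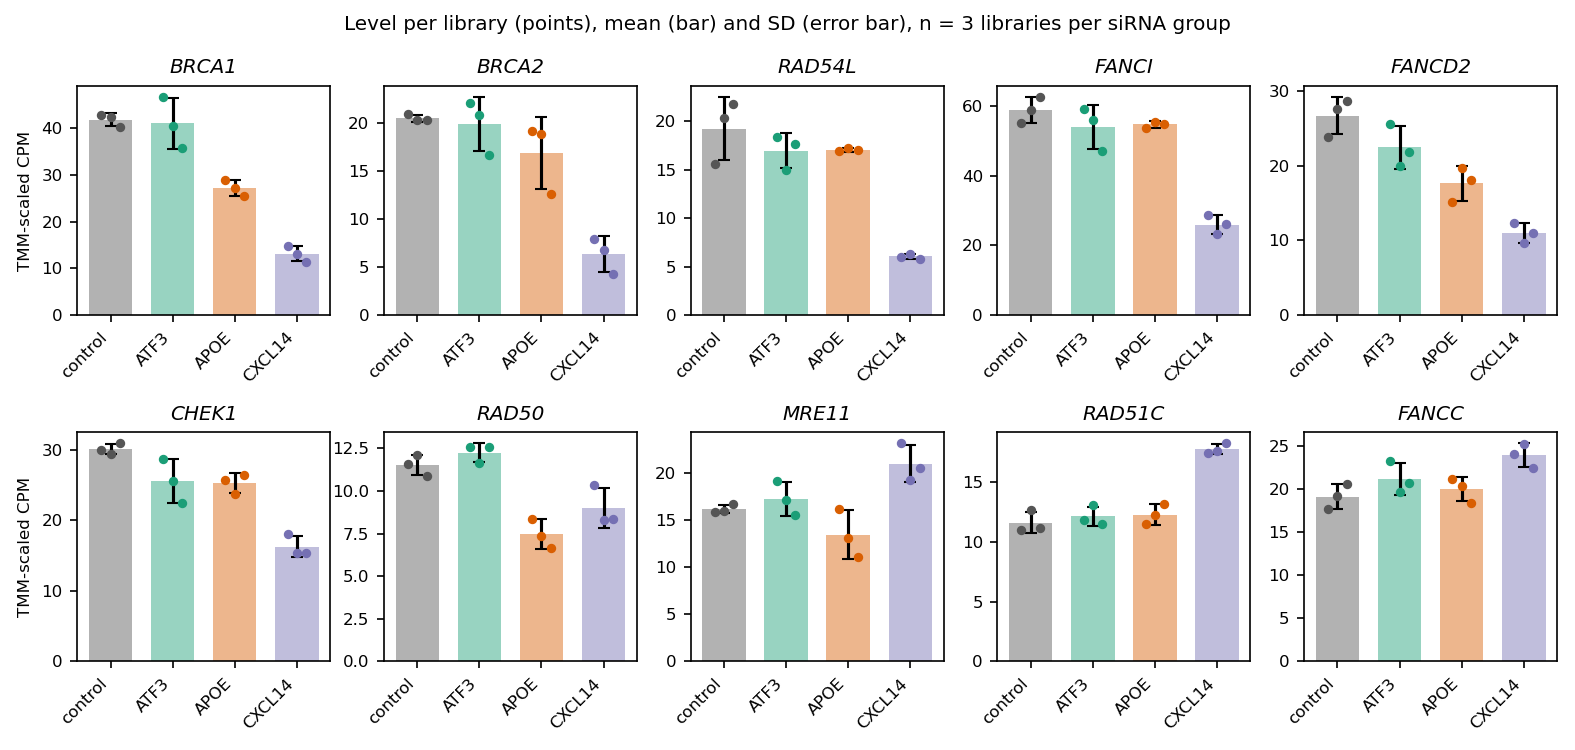
TMM-scaled CPM of 10 genes per library (points), with mean (bar) and SD (error bar) of 3 libraries per siRNA group. BRCA1, BRCA2, RAD54L, FANCI, FANCD2 and CHEK1 are lowest with CXCL14 siRNA, RAD50 is lowest with APOE siRNA (6.63 to 8.38), and MRE11, RAD51C and FANCC are highest with CXCL14 siRNA.

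The paralogs of strand exchange, RAD51C, RAD51D, XRCC2 and XRCC3, differed among themselves. RAD51C was the member that rose most with CXCL14 siRNA, from 11.0, 12.6 and 11.1 CPM to 17.4, 17.6 and 18.2 (153% of control, 0.61 ± 0.10, edgeR adjusted p = 4.94e-05), with no overlap between the groups. ATF3 siRNA (11.8, 13.0 and 11.5 CPM) and APOE siRNA (11.4, 12.2 and 13.1) overlapped the control, and neither passed. XRCC2 fell to 41.6% of control with CXCL14 siRNA and XRCC3, the partner of RAD51C, to 75.2%. RAD51D, which forms a complex with XRCC2 and RAD51C, had a ratio of 97.9% with CXCL14 siRNA (95% interval of the log2 difference -0.33 to 0.27). It was lower with ATF3 siRNA (7.36 to 10.1 CPM against 11.1 to 12.6, adjusted p = 0.0403), a call that remained only without ATF3 siRNA library 1 among the single libraries left out, and that ended with only the 2 groups in the fit. RAD51C and XRCC2 thus moved in opposite directions with CXCL14 siRNA, as did RAD51C and XRCC3. The XRCC3 value is uncertain, since 76.7% of its exon bases are shared with KLC1 on the opposite strand.

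The motor proteins of strand exchange fell with CXCL14 siRNA. RAD54L (chromosome 1, 46247688 to 46278473), a DNA translocase, read 15.6, 20.3 and 21.9 CPM in the control, 18.4, 14.9 and 17.6 with ATF3 siRNA, 16.9, 17.3 and 17.02 after APOE siRNA and 6.00, 6.31 and 5.83 with CXCL14 siRNA. It fell to 31.4% of control with CXCL14 siRNA (-1.67 ± 0.13, edgeR adjusted p = 1.47e-08), and the ATF3 and APOE siRNA libraries overlapped the control. RAD51AP1, which helps the strands pair, was at 13.9 to 15.7 CPM in the control and 3.66 to 7.48 with CXCL14 siRNA (36.8% of control, adjusted p = 5.38e-06). With APOE siRNA it stood at 17.3 to 19.9 CPM, above every control library, without passing (0.36 ± 0.17, adjusted p = 0.0917). Between those 2 groups it was 3.48 times as high with APOE as with CXCL14 siRNA (adjusted p = 3.41e-07), the widest difference between any pair of groups among the 34. RAD54B fell to 45.1% of control with CXCL14 siRNA, and that call ended without control library 2 or CXCL14 siRNA library 1 (highest adjusted p 0.0683).

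In the Fanconi core complex, FANCA (chromosome 16, 89737549 to 89816657) and FANCG (chromosome 9, 35073835 to 35080016), which bind each other, had the smallest adjusted p. FANCA read 31.9, 28.7 and 33.1 CPM in the control, 27.9, 24.2 and 26.0 with ATF3 siRNA, 28.0, 25.7 and 25.3 after APOE siRNA and 11.0, 14.0 and 11.5 with CXCL14 siRNA. FANCG read 26.5, 24.9 and 27.1 CPM in the control, 24.0, 24.7 and 26.4 with ATF3 siRNA, 20.4, 21.9 and 21.2 after APOE siRNA and 11.9, 13.4 and 12.5 with CXCL14 siRNA. With CXCL14 siRNA they fell to 38.9% (-1.36 ± 0.10, edgeR adjusted p = 1.02e-08) and 48.1% of control (-1.05 ± 0.08, adjusted p = 2.06e-08). With APOE siRNA they were at 84.4% (adjusted p = 0.0484) and 80.8% (adjusted p = 0.00538), again with all libraries below the control ones.

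UBE2T (chromosome 1, 202331657 to 202341980) and FANCL, the E2 enzyme and the ligase that attach ubiquitin to FANCD2, were both lower with CXCL14 siRNA. UBE2T stood at 19.02, 21.1 and 19.5 CPM in the control, at 23.1, 23.1 and 18.5 with ATF3 siRNA, at 17.8, 17.4 and 17.97 with APOE siRNA, and at 9.85, 10.6 and 10.3 with CXCL14 siRNA (51.6% of control, -0.95 ± 0.10, edgeR adjusted p = 5.79e-07). FANCL fell to 60.9% of control and FANCE, which binds FANCD2, to 65.3%. FANCM (chromosome 14, 45135940 to 45200890), the translocase that anchors the core complex to DNA, was at 11.4, 13.2 and 9.84 CPM in the control, at 9.25, 9.66 and 8.04 with ATF3 siRNA, at 8.33, 7.77 and 8.67 with APOE siRNA, and at 5.16, 4.84 and 4.43 with CXCL14 siRNA. It fell with APOE siRNA to 72.0% (-0.47 ± 0.13, adjusted p = 0.00621) and with CXCL14 siRNA to 41.9% of control (-1.25 ± 0.13, adjusted p = 6.57e-07).

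Core members FANCC and FANCF did not fall. FANCC, which with FANCE and FANCF makes up one arm of the core complex, rose with CXCL14 siRNA from 17.6, 19.1 and 20.6 CPM to 24.1, 25.2 and 22.4 (125% of control, 0.32 ± 0.09, edgeR adjusted p = 0.00838). FANCF was at 11.96 to 13.7 CPM in the control and 13.4 to 15.8 with CXCL14 siRNA, without passing (adjusted p = 0.2). Within that arm FANCC was thus higher, FANCE lower and FANCF undecided with CXCL14 siRNA. Library values of RAD50, MRE11, RAD51C and FANCC were chosen after they had been seen.

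The substrate pair of the pathway, FANCD2 and FANCI, was lower with CXCL14 siRNA in both members. FANCI (chromosome 15, 89243949 to 89317261) read 55.0, 58.9 and 62.5 CPM in the control, 59.2, 55.8 and 47.0 with ATF3 siRNA, 53.6, 55.4 and 54.9 after APOE siRNA and 28.8, 23.1 and 26.0 with CXCL14 siRNA. FANCD2 (chromosome 3, 10026414 to 10101930) read 23.9, 27.6 and 28.6 CPM in the control, 25.6, 19.997 and 21.8 with ATF3 siRNA, 15.1, 19.7 and 18.1 after APOE siRNA and 12.3, 9.58 and 11.0 with CXCL14 siRNA. Both fell with CXCL14 siRNA, to 44.1% (-1.18 ± 0.09, edgeR adjusted p = 2.28e-08) and 41.1% of control (-1.28 ± 0.13, adjusted p = 3.11e-07). With APOE siRNA FANCD2 fell to 66.0% (-0.60 ± 0.12, adjusted p = 0.000909), whereas FANCI was at 92.9% and did not pass (adjusted p = 0.368). EME1, a subunit of the nuclease that resolves joined molecules, fell to 49.7% of control with CXCL14 siRNA, from 4.02 to 5.50 CPM to 1.85 to 2.74.

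The siRNA groups were also compared with each other. Against CXCL14 siRNA, ATF3 siRNA gave 27 members higher and 3 lower, ATM, RAD51C and RAD51D, where 28.4% of tested genes were higher and 25.3% lower, 53.7% in all. APOE siRNA gave 24 higher and 4 lower, MRE11, PALB2, RAD51C and FANCC, where 28.9% were higher and 26.6% lower, 55.5% in all. The member medians were 0.77 and 0.68, against 0.00 and 0.01 over all tested genes. Scaled by library size alone, 23 and 23 members were higher and 6 and 6 lower. That scaling moved the median of all genes to -0.10 and -0.11, and the genes called over the whole table from 4239 higher and 3769 lower to 3478 and 4897 for ATF3 siRNA, and from 4308 and 3974 to 3379 and 5144 for APOE siRNA. RAD51C was lower in both comparisons (-0.55 ± 0.10 and -0.54 ± 0.10, edgeR adjusted p = 0.000133 and 0.000164), which share the CXCL14 siRNA libraries. The lower counts rest on single libraries: for ATF3 siRNA, 1 without ATF3 siRNA library 2 or CXCL14 siRNA library 1 and 5 without ATF3 siRNA library 1, and for APOE siRNA, 2 without CXCL14 siRNA library 1. The higher counts with 1 library left out were 23 to 25 for ATF3 siRNA and 22 to 24 for APOE siRNA. Against CXCL14 siRNA, the higher calls with ATF3 siRNA ended in 9 of 12 alternative settings for ATRIP, 7 for RAD54B and 6 each for NBN and RBBP8.

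Between ATF3 and APOE siRNA 9 members differed, where 38.2% of tested genes did. The 7 that were higher with ATF3 siRNA were MRE11, RAD50, NBN, BRCA1, FANCG, UBE2T and FANCD2, where 20.3% of tested genes were higher, and the 2 that were lower were RAD51D and RAD51AP1, where 17.9% were lower. RAD50 (1.64 times, 0.71 ± 0.12, edgeR adjusted p = 0.000196) and BRCA1 differed most clearly, with no overlap between the libraries. RAD51AP1 was at 66.1% (adjusted p = 0.00937). Of the 9, MRE11, NBN, FANCG, UBE2T, FANCD2 and RAD51D lost the call when certain single libraries were left out, with 3 higher without APOE siRNA library 1, 4 without ATF3 siRNA library 2 or APOE siRNA library 3, and 1 lower without ATF3 siRNA library 2. All 3 MRN transcripts were higher with ATF3 than with APOE siRNA.

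Other genes of the same pathways were read from a list of 53, of which 50 were tested. With CXCL14 siRNA 24 were lower and 10 higher (48% and 20%, against 28.4% and 27.4% of all tested genes). Their median was -0.22 and their summed level 90.6% of control. POLQ, the polymerase of microhomology-mediated joining, fell from 30.9 to 7.65 CPM (-2.02 ± 0.13, edgeR adjusted p = 1.78e-09). MCM8, part of a helicase used in recombination, was at -1.10 ± 0.09 and USP1, which removes ubiquitin from FANCD2, at -1.07 ± 0.10. With APOE siRNA 13 were lower and 11 higher (26% and 22%), near the 22.5% and 22.3% of all tested genes. Among them were BRCC3, a deubiquitinase of the BRCA1-A complex, which went from 20.03 to 3.31 CPM (-2.58 ± 0.18, edgeR adjusted p = 1.37e-08), and FAAP20, which binds FANCA (0.62 ± 0.08). With ATF3 siRNA 4 were lower and 1 higher (8% and 2%, against 9.14% and 11.2% of all tested genes). REV3L, the catalytic subunit of polymerase zeta (-0.60 ± 0.11), and BABAM2 (-0.65 ± 0.12) were among the lower, and FAAP20 (0.30 ± 0.08) was higher. Of 17 other checkpoint genes, 13 were lower and 1 higher with CXCL14 siRNA (76.5% and 5.88%), and their summed level was 58.9% of control. Among them CLSPN, the adaptor through which ATR activates CHEK1, was at -1.96 ± 0.13.

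Other repair pathways were read from 3 more lists. With CXCL14 siRNA, 4 of 12 tested end-joining genes were lower and 1 higher, with SHLD2 at -2.65 ± 0.11. These are 33.3% and 8.33%, against 28.4% and 27.4% of all tested genes. Of 19 base excision genes 10 were lower and 3 higher (52.6% and 15.8%). Of 18 mismatch and nucleotide excision genes 3 were lower and 7 higher (16.7% and 38.9%), and their summed level was 112.3% of control. The summed level of end-joining genes was 77.7% of control and that of base excision genes 93.7%. The summed members, at 63.4%, thus stood lower than each of these 3 sums, but not lower than the other checkpoint genes (58.9%).

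**Figure D4:**
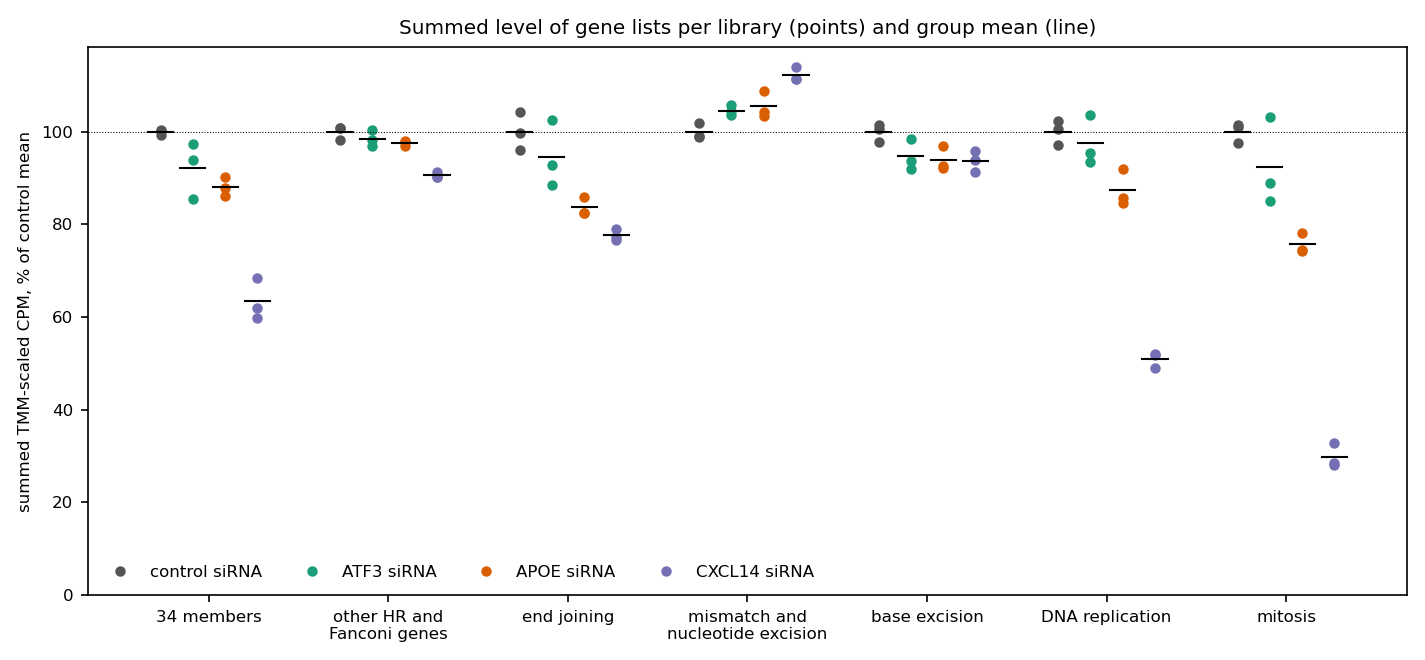
Summed TMM-scaled CPM of 7 gene lists in each library (points) and group mean (line), as a percentage of the control mean. With CXCL14 siRNA the 34 members lie at 59.8 to 68.4%, below the other repair lists shown. They lie above the DNA replication list (49.0 to 52.0%) and the mitosis list (28.1 to 32.8%). The other checkpoint genes, at 56.8 to 60.9%, are not drawn.

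Genes of DNA replication and mitosis were lower with CXCL14 siRNA, and in part with APOE siRNA. With CXCL14 siRNA all 39 genes of the DNA replication list were lower (median -1.03, summed 2105 to 2217 CPM in the control and 1062 to 1127 with the siRNA), and all 36 tested of 37 mitosis genes (median -1.63, 2172 to 2260 against 626 to 731 CPM). RRM2, the ribonucleotide reductase subunit made in S phase, was at -1.75 ± 0.07 and ECT2, needed for cytokinesis, at -2.36 ± 0.10. With APOE siRNA 16 replication genes were lower and 5 higher, and 18 mitosis genes were lower, with MCM6 (-1.86 ± 0.10) and HMMR (-1.79 ± 0.15) among them. With ATF3 siRNA 3 replication genes were lower and 2 higher (7.69% and 5.13%), and 2 mitosis genes were lower (5.56%), against 9.14% lower and 11.2% higher over all tested genes. CDKN1A, the inhibitor of cyclin-dependent kinases, rose from 960 to 1378, 1735 and 1979 CPM with ATF3, APOE and CXCL14 siRNA. Of 29 tested cell cycle regulators 16 were lower and 8 higher with CXCL14 siRNA, and of 10 keratinocyte markers 8 were lower and 1 higher. A keratinocyte differentiation list stood at 306%, 312% and 76.9% of its control sum with ATF3, APOE and CXCL14 siRNA. Of its 15 tested genes 11, 13 and 4 were higher and 0, 0 and 5 lower. Its median with CXCL14 siRNA was -0.08. Over all tested genes, 28.4% were lower and 27.4% higher with CXCL14 siRNA. With APOE siRNA these shares were 22.5% and 22.3%, and with ATF3 siRNA 9.14% and 11.2%. The part of cell cycle or differentiation state in the changes of the 34 genes was not tested.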

How the data were processed

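Deposited were raw counts per gene and FPKM per gene and library, made by the authors with HISAT2 2.0.5 on build hg38 and featureCounts 1.5.0-p3, per the submitters' processing notes. No source used here names the annotation. The 58735 gene IDs are all in GENCODE release 29 (99.98% with equal coordinates), which gave exon overlaps. Within each library the deposited FPKM were proportional to count over gene length. Counts were filtered with filterByExpr (14920 genes, 99.9% of counts), scaled by TMM and fitted by quasi-likelihood with 1 term per group over 12 libraries in edgeR 4.0.16 (R 4.3.3, limma 3.58.1). P-values were adjusted by Benjamini-Hochberg over all tested genes and called under 0.05 without a fold limit. Confidence intervals are 95%.

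The members and lists were chosen with earlier results of these data known. All 34 members are named; library values are given for the 12 with the smallest adjusted p against the control, and for others only where said. At most 3 called genes were named per other list and comparison, and 1 gene of the other recombination genes is not reported here. Lists covered other recombination, checkpoint, end-joining, excision and mismatch repair, replication, mitosis, cell cycle regulator and differentiation genes, and markers of keratinocytes, fibroblasts, melanocytes, immune and endothelial cells. Scripts were tested on simulated counts. Alternatives were DESeq2 1.42.0 size factors and its Wald test, library size alone, no filter, a replicate block, only the 2 groups compared, and each library left out.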

Additional observations from a re-analysis of the deposited data

How the results depend on the processing

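Over 12 alternatives per comparison, 6 of them with 1 library of its groups left out, no member's difference changed sign with a call, and 2295 values of single members kept their side of the threshold, 106 lost a call and 47 gained one. The counts for CXCL14 siRNA against the control were 3 higher and 26 to 27 lower outside the left-out libraries, and 2 to 4 and 25 to 27 with 1 library left out. The members lower with ATF3 siRNA were 5 by library size alone, and with 1 library left out the counts ran from 0 to 7 lower and 0 to 1 higher. With APOE siRNA 1 member, RAD51AP1, was higher with no filter and with only the 2 groups compared, and leaving out 1 library gave 0 higher and 7 to 10 lower. Between ATF3 and APOE siRNA only the 2 groups compared gave 4 higher, and leaving out 1 library gave 3 to 6 higher and 1 to 2 lower. Between ATF3 and CXCL14 siRNA library size alone gave 6 lower, and leaving out 1 library gave 23 to 25 higher and 1 to 5 lower. Between APOE and CXCL14 siRNA leaving out 1 library gave 22 to 24 higher and 2 to 5 lower, the 2 without CXCL14 siRNA library 1. Where a left-out library ended a call there were fewer samples; otherwise the cause was not tested.

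The labels do not say that a replicate number marks a shared batch, and the numbers were not taken as pairing because not every same-numbered pair was over 0.1: deviations correlated at -0.05 to 0.37, over 0.1 in 12 of 18 pairs. That 9 of 12 libraries correlated best with their own number is a hint from the data, not the design. With the replicate block the members lower with ATF3 siRNA were 7, with APOE siRNA 13 and with CXCL14 siRNA 27, and the higher ones 0, 0 and 3. The block gave 7 higher and 3 lower between ATF3 and APOE siRNA, 27 and 4 between ATF3 and CXCL14 siRNA, and 24 and 4 between APOE and CXCL14 siRNA. Depth limits RAD54B (from 10 counts) and EME1 (from 41 counts) most.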
